A study of Homo sapiens with 12 samples.

Results

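Keratins, S100 genes and the structural genes of the cornified envelope were followed in H520, a human cell line derived from a squamous cell carcinoma of the lung. Members were all rows of the expression table named as a keratin (KRT), an S100 gene, a small proline-rich gene (SPRR) or a late cornified envelope gene (LCE), together with IVL, LOR, FLG, TGM1 and TGM3. Numbered pseudogene copies and hyphenated names were left out. The rule gave 116 of the 58174 rows: 29 type I keratins, 26 type II keratins, 11 keratin rows whose names mark a pseudogene (such as KRT43P), 15 S100 genes, 12 SPRR genes, 18 LCE genes, and the 5 single names. The groups, of 3 libraries each, were cells given BLU9931 and palbociclib together (the combination), palbociclib alone, BLU9931 alone, and control cells. Each drug was used at 1 µM for 72 h, alone and in the combination. BLU9931 binds covalently to FGFR4, a fibroblast growth factor receptor, and blocks it. Palbociclib blocks CDK4 and CDK6, kinases that drive entry into the cell cycle. What the control cells were given is not stated in the labels, nor is it stated that the replicates were grown separately, so p-values measure only the spread between these libraries, which may be technical. All libraries came from this cell line alone.

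Keratins build the intermediate filaments of epithelial cells, and each filament needs a type I and a type II partner. Simple epithelia use KRT8 with KRT18 and KRT19, basal cells of stratified epithelia use KRT5 with KRT14 and KRT15, and the hair shaft uses a hair keratin set of its own. As squamous cells mature, transglutaminases cross-link involucrin (IVL), loricrin (LOR), SPRR and LCE proteins into the cornified envelope, and filaggrin (FLG) bundles the keratin filaments. S100 proteins are small calcium-binding proteins, many of them encoded beside the envelope genes in the epidermal differentiation complex of chromosome 1.

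Libraries held 21.7 M to 35.8 M counts (M, mega). All 12 libraries entered a single edgeR quasi-likelihood fit of the counts, with p-values adjusted by Benjamini-Hochberg over the 20612 genes that passed its filter on low counts. Levels of a single gene are in CPM, that is, counts scaled by the TMM-adjusted library total. Between genes, levels are given as the TPM values of the deposited table, which are scaled by gene length. Control replicate 1 and palbociclib replicate 3 stood apart, at 48.9 and 49.7 on the second principal component against -25.6 to 1.68 for the other 10 libraries, and results that rest on them are given with and without them.

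Of 15 squamous markers, 6 averaged over 1 TPM, led by the transcription factor SOX2 (342 to 443 TPM across libraries) and the desmosome gene PERP (67.3 to 98 TPM). The other 9 averaged less. TP63, the master regulator of the squamous lineage, reached at most 0.165 TPM in any library, and KRT14 reached 0.0654 TPM. DSG3, PKP1 and CLCA2 stayed at or under 0.0407 TPM, and SERPINB13 had no count. KRT5, the basal partner of KRT14, reached 1.31 TPM and averaged 0.249 TPM in the combination and 0.801 TPM with palbociclib, against 0.078 TPM in control. The summed level of 10 neuroendocrine markers moved with the groups, at 705 to 725 TPM in the combination, 549 to 610 TPM with palbociclib, 365 to 392 TPM with BLU9931 and 291 to 308 TPM in control. Most of it was the granule gene CHGB, while NEUROD1 reached 0.0539 TPM and CALCA had no count. Sums for 10 lung glandular markers were 23.5 to 24.7 TPM in the combination against 10.5 to 19.7 TPM in control. Each drug alone gave a like sum, at 22.1 to 27.1 TPM with palbociclib and 23.8 to 26.1 TPM with BLU9931. The 8 leukocyte markers summed to 5.09 to 5.45 TPM in the combination and 3.66 to 4.15 TPM with palbociclib. With BLU9931 their sum was 1.96 to 2.56 TPM, against 1.68 to 2.61 TPM in control. Within the leukocyte list LYZ averaged 3.35 TPM in the combination against 0.297 TPM in control and CD14 0.536 TPM against 1.08 TPM, while PTPRC, CD3E and MS4A1 reached at most 0.182 TPM in any library. For 8 fibroblast markers sums were 1.82 to 3.45 TPM in the combination and 2.67 to 4.69 TPM with palbociclib. With BLU9931 these sums were 6.85 to 7.96 TPM, and in control 3.41 to 5.81 TPM. In bulk RNA a shift in the share of cells of a type and a shift in RNA per cell cannot be told apart, and the part of these marker shifts in the keratin and S100 results was not tested.

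Only 27 of the 116 genes passed the filter, which needed about 0.356 CPM in enough libraries. A further 56 had no count in any library and 33 had at most 16 counts in a library. The cornified envelope was almost silent: among the 33 SPRR, LCE, IVL, LOR and FLG rows, 30 had no count, SPRR1A and SPRR3 had 2 and 4 counts over all libraries, and FLG alone was tested. No count was found for IVL, LOR, SPRR1B, SPRR2A, KRT17, KRT6B, S100A7, S100A8 or S100A9, the last of which form the calprotectin pair of inflamed epidermis (S100A8 with S100A9). A count of 0 allows, at 3 counts per library, a level of 0.0838 to 0.138 CPM depending on the library, with counting error only. KRT1, KRT14 and KRT16 had 2, 5 and 5 counts in all, TGM3 had 13, S100A16 had 23, and KRT4, KRT80, KRT81 and KRT86 had 31 to 62.

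The most abundant keratins were those of simple epithelium. KRT8, KRT18 and KRT19 together supplied 93.7% to 97.5% of the TPM of all keratins in every library. Their sum averaged 989.4 ± 90.4 TPM in the combination, 898 ± 207 TPM with palbociclib, 889.9 ± 1.6 TPM with BLU9931 and 642.9 ± 108 TPM in control (SD, n = 3). By mean TPM over the 12 libraries KRT19 ranked 258 among all rows of the table, KRT8 291, S100A6 509 and KRT18 830. The next member, S100A3, ranked 9053, so 4 genes stood far above the rest. The 17 hair keratins KRT31 to KRT40 and KRT81 to KRT86 summed to 1.963 ± 0.458 TPM in the combination, 6.585 ± 1.15 TPM with palbociclib, 0.5655 ± 0.164 TPM with BLU9931 and 0.3451 ± 0.165 TPM in control. Most of the palbociclib sum came from KRT38 (3.42 TPM), KRT32 (1.14 TPM), KRT35 (0.728 TPM) and KRT36 (0.685 TPM). No control library was over the filter's cut-off for any of them. KRT33B, KRT39, KRT40, KRT82 and KRT85 had no count in any library.

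**Figure D1:**
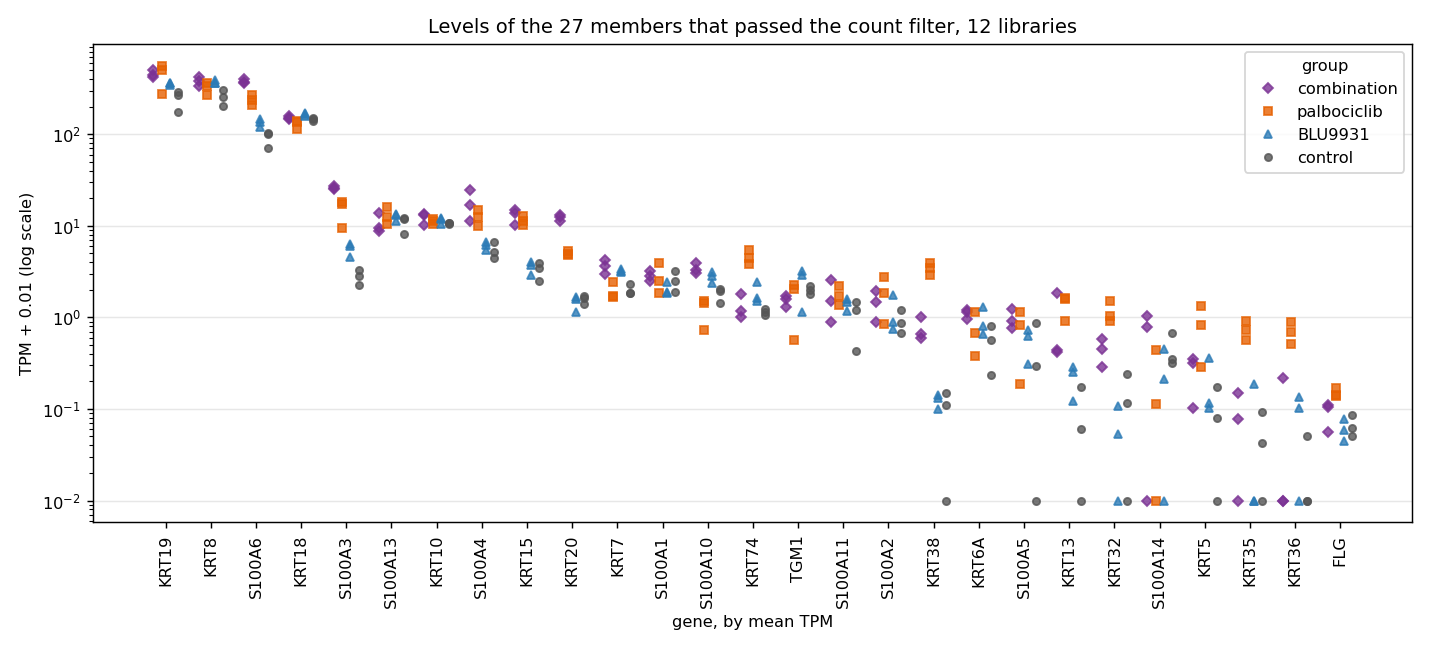
TPM plus 0.01 on a log axis for the 27 genes that passed the filter, each point a library, genes ordered by mean TPM and the combination leftmost within each gene. KRT19, KRT8, S100A6 and KRT18 lie near or above 100 TPM in most libraries, and the next gene, S100A3, averages 12.4 TPM over the 12 libraries.

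Members that changed were higher, not lower, against control. Palbociclib against control was tested to ask what the drug does alone, and 13 of the 27 passed with a higher level and 0 with a lower level, where 20.6% of all tested genes passed, 10% higher and 10.5% lower. They were KRT38, S100A3, KRT74, KRT20, KRT15, S100A6, KRT13, KRT32, KRT36, S100A4, KRT35, FLG and KRT19. In the combination against control 12 of the 27 passed, again all higher, where 31.7% of all tested genes passed, 15.4% higher and 16.3% lower. They were KRT20, S100A3, S100A6, KRT15, KRT38, S100A4, KRT13, KRT7, KRT19, KRT6A, KRT8 and S100A10. The median log2 change of the 27 was 0.85 in the combination against 0.03 for all tested genes, and 0.87 with palbociclib against 0.01 for all tested genes. Counts and medians both carry a selection, since members below the filter's cut-off in control entered the test through other libraries. Over the 15 members above the cut-off in all 3 control libraries the median was 0.84 in the combination and 0.31 with palbociclib, with 9 and 7 called. No share was taken over all genes above the cut-off in control. The counts of 9 and 7 therefore have no matching background and cannot be read as an excess. The remaining calls were KRT13, KRT38 and KRT6A in the combination, and KRT13, KRT32, KRT35, KRT36, KRT38 and FLG with palbociclib. All comparisons with control share the same 3 control libraries.

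BLU9931 alone was tested against control in the same fit, and edgeR called 0 of the 27 members, where 0.18% of all tested genes passed, 0.141% higher and 0.0388% lower. At an unadjusted p under 0.05 there were 6, where 16.2% of all tested genes were, and all 6 were higher: S100A3, KRT7, S100A6, KRT8, KRT74 and S100A10, with log2 changes between 0.48 and 1.02. DESeq2 called 1 of them, S100A3, at an adjusted p of 0.0208, and called 590 of all genes where edgeR had called 37. The median log2 change of the 27 was 0.37, against 0.00 for all tested genes (0.0025). Without control replicate 1 and palbociclib replicate 3, edgeR called S100A3 (log2 change 0.90, adjusted p = 0.0236) and KRT8 (0.41, adjusted p = 0.0456). That fit called 553 of all genes in this comparison.

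**Figure D2:**
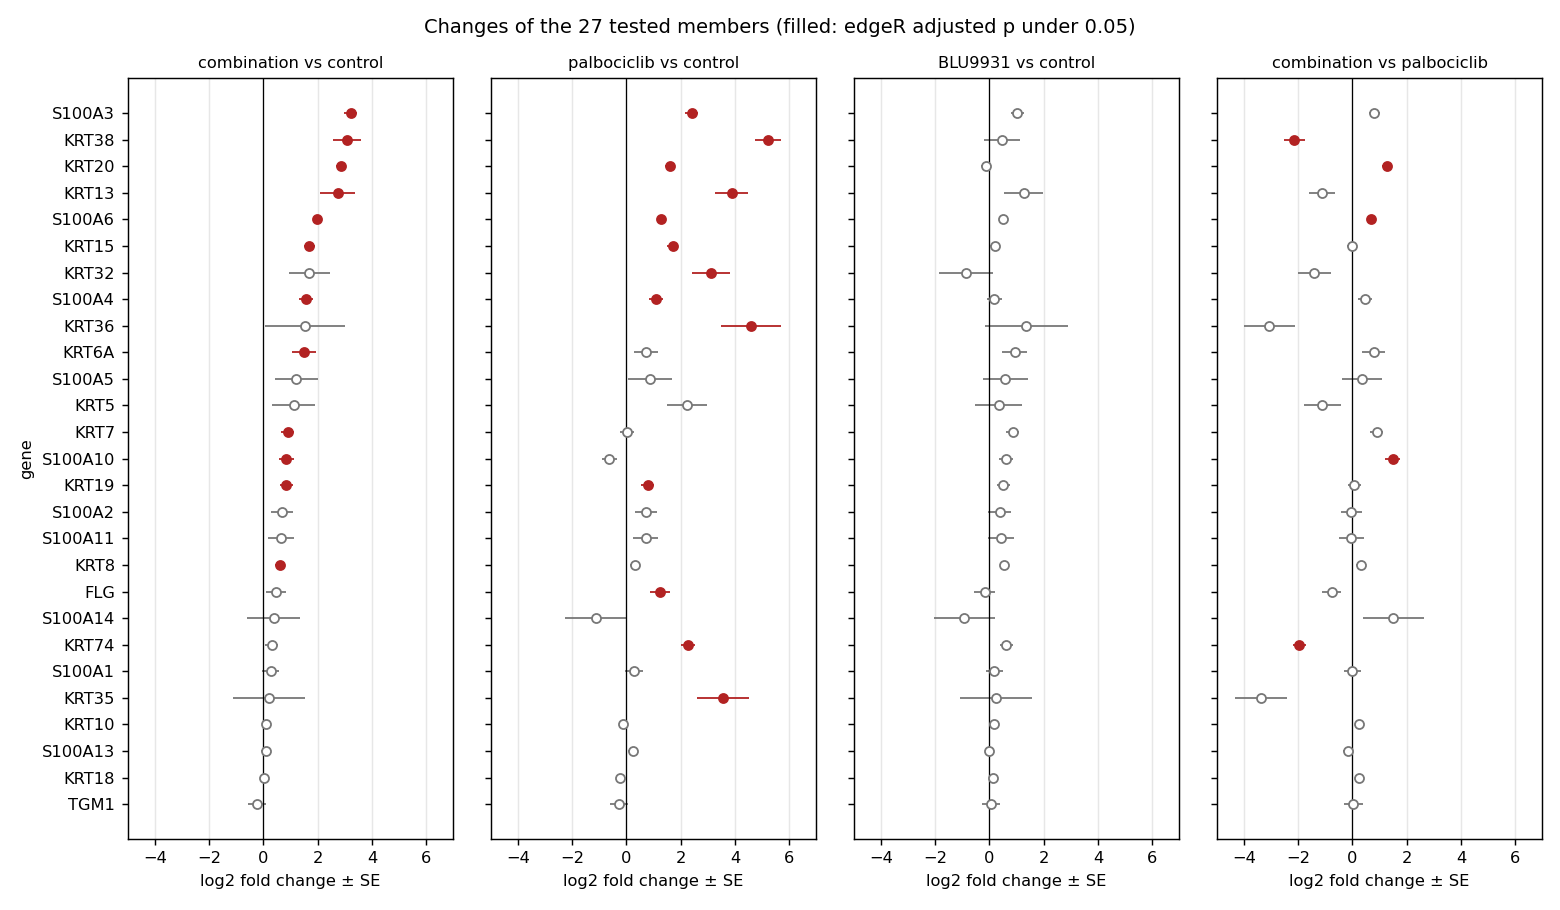
Log2 fold change ± SE for the 27 tested genes in 4 comparisons, filled where edgeR's adjusted p was under 0.05. All 12 filled points for the combination against control and all 13 for palbociclib against control lie right of 0, none is filled for BLU9931, and KRT38 and KRT74 are filled left of 0 where the combination is set against palbociclib.

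The hair keratin KRT38 had the greatest fold change under palbociclib in the fit of all 12 libraries, though KRT36 exceeded it without control replicate 1 (log2 7.16). KRT38 (ENSG00000171360, GRCh38 chromosome 17, 41436446 to 41440921), a type I keratin of the hair cortex, was near the floor in control cells. Its level was 0.770, 0.818 and 1.24 CPM in the combination libraries and 4.90, 4.13 and 3.64 CPM in the palbociclib libraries, against 0.170, 0.136 and 0.155 CPM in the BLU9931 libraries and 0.186, 0 and 0.142 CPM in the control libraries. Every palbociclib library lay above every combination library, and every combination library above the other 6. No control or BLU9931 library was over the filter's cut-off for KRT38. It entered the test through the palbociclib and combination libraries, so a difference from control was part of how it was admitted. The palbociclib level was 37.1-fold that of control (log2 5.21 ± 0.49, SE, edgeR adjusted p = 4.41e-05), and the combination level was 8.37-fold (log2 3.07 ± 0.51, adjusted p = 0.00089). Summed over libraries these were 341 counts with palbociclib and 78 in the combination against 10 in control, with ratios of 38.8 (95% counting interval 20.9 to 81.7) and 8.8 (4.54 to 19.1). The combination fell by 2.15 ± 0.38 on the log2 scale relative to palbociclib (adjusted p = 0.00813), a call lost without combination replicate 1 (adjusted p = 0.0532) or combination replicate 2 (adjusted p = 0.0541).

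KRT74 (ENSG00000170484, chromosome 12, 52565782 to 52573825), a type II keratin of the inner root sheath of the hair follicle, rose with palbociclib and not in the combination. Its level was 1.36, 1.92 and 1.77 CPM in the combination and 6.54, 7.71 and 5.62 CPM with palbociclib, against 1.91, 2.68 and 1.74 CPM with BLU9931 and 1.49, 1.00 and 1.61 CPM in control. The palbociclib libraries stood clear of the other 9, and the combination overlapped control. KRT74 rose 4.81-fold with palbociclib (log2 2.27 ± 0.24, adjusted p = 0.000112), while the combination differed from control by 0.30 ± 0.25 on the log2 scale (95% interval -0.25 to 0.85, adjusted p = 0.395). Relative to palbociclib the combination fell by 1.97 ± 0.24 (adjusted p = 0.0008). Its neighbours among the type II keratins on chromosome 12 were nearly silent, since 20 of the 23 rows in the window around it had at most 20 counts in any library.

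Promoter letters are shown for KRT38 and KRT74, the members called lower in the combination than with palbociclib, and for KRT20 and S100A3, which rose over control in both. Each run is the 250 bases before the RefSeq start (GRCh38.p14, all on the minus strand, 5′ to 3′), and capitals mark the motif matches described after them.
KRT38 chr17:41440984-41441233: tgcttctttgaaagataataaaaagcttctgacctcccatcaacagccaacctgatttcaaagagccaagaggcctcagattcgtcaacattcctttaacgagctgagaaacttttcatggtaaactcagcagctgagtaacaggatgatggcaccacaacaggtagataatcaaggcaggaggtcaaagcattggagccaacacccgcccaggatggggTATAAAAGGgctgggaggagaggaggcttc
KRT74 chr12:52573844-52574093: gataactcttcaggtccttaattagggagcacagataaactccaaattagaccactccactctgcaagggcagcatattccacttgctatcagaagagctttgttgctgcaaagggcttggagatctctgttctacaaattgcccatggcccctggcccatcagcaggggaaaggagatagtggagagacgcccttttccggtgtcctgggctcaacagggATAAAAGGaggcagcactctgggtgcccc
KRT20 chr17:40885243-40885492: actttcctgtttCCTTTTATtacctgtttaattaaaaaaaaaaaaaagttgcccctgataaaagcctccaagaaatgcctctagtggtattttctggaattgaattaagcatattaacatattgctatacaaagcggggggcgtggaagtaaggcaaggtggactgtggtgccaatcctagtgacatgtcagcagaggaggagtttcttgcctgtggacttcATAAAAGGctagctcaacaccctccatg
S100A3 chr1:153549259-153549508: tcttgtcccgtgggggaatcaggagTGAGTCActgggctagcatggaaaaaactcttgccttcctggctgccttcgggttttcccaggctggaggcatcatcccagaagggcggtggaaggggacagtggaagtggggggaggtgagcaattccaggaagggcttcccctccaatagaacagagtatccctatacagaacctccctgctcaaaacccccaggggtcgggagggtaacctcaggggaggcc
Searched on both strands, the TATA box core TATAAA was in the KRT38 promoter 30 bases upstream of the start and in 10.7% of the 35116 promoters of the table. The AP-1 motif TGANTCA was in the S100A3 promoter 225 bases upstream and in 6.57% of promoters. The E2F motif TTTNGCGC was in none of the 4 and in 1.51% of promoters. A shared stretch, ATAAAAGG, picked after the sequences had been read, lay 28 bases upstream in KRT20 and 29 bases upstream in KRT38 and KRT74, and in 1.27% of promoters. It overlaps the TATA core in KRT38, and KRT20 holds its reverse complement CCTTTTAT 238 bases upstream. Of the 27 tested genes, 20 had a promoter in the table, of which 6 held TATAAA, 4 TGANTCA, 0 TTTNGCGC and 4 ATAAAAGG (FLG, KRT20, KRT38 and KRT74).

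The other hair keratins beside KRT38 moved with it from a handful of counts. KRT36, found in nails and tongue, had 6 counts in the 3 combination libraries and 51 in the palbociclib libraries against 2 in control. That gave a palbociclib to control ratio of 29 (95% counting interval 7.64 to 246) and a combination to palbociclib ratio of 0.117 (0.0409 to 0.272). KRT35, of the hair matrix and cuticle, had 5 counts in the combination and 56 with palbociclib against 5 in control, with a palbociclib to control ratio of 12.8 (5.15 to 40.8) and a combination to palbociclib ratio of 0.0884 (0.0276 to 0.219). KRT32, of the hair cuticle, was at 0.408, 0.533 and 0.262 CPM in the combination and 1.41, 0.826 and 0.970 CPM with palbociclib, against 0, 0.242 and 0.113 CPM in control. For these 3 genes each palbociclib library lay above each library of the other groups. Palbociclib against control passed for KRT32 (log2 3.11 ± 0.70, adjusted p = 0.00883), KRT36 (log2 4.59 ± 1.11, adjusted p = 0.0136) and KRT35 (log2 3.56 ± 0.96, adjusted p = 0.022). No control or BLU9931 library was over the filter's cut-off for these 3, and each entered the test only with the palbociclib libraries, so that a difference was part of how they were admitted.

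The combination did not pass against control for KRT32, KRT35 or KRT36, at adjusted p = 0.108, 0.93 and 0.471, nor against palbociclib, at adjusted p = 0.284, 0.0898 and 0.117. KRT36 lost its palbociclib call without control replicate 2 (adjusted p = 0.055) or 3 (log2 3.97, adjusted p = 0.0585), and its log2 change was 7.16 without control replicate 1. KRT35 lost its call without control replicate 1 (adjusted p = 0.0664) or 3 (adjusted p = 0.075) or palbociclib replicate 1 (adjusted p = 0.0754), or without control replicate 1 and palbociclib replicate 3 together (adjusted p = 0.0663), and its change was 4.26 without control replicate 2, while KRT32 stayed past the threshold at 3.99 without that library.

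KRT38, KRT43P, KRT32, KRT35, KRT36, KRT13, KRT15 and KRT19 are consecutive keratin rows on chromosome 17, from 41436446 to 41528308, a stretch of 91.9 kb with 11 rows in all. The stretch was marked out after the values were seen and is described without a test. All 8 had a higher mean CPM with palbociclib than in control. Mean CPM was lower in the combination than with palbociclib for 7 of the 8, KRT19 being the exception (309.8 CPM in the combination, 297 CPM with palbociclib), and for KRT15 the difference was trivial (13.69 and 13.70 CPM). KRT43P, a pseudogene by name and not tested, read 0.136, 0.178 and 0.0982 CPM in the combination and 0.402, 0.315 and 0.323 CPM with palbociclib, against 0, 0.0346 and 0 CPM in control. KRT37, the hair keratin next to KRT38 outside the stretch and not tested, averaged 0.0891 CPM in the combination and 0.0841 CPM with palbociclib, and had no count in control. KRT31, farther out and not tested, averaged 0.189 CPM in the combination and 0.239 CPM with palbociclib, against 0.0189 CPM in control. On the other side KRT9 and KRT17 had no count, and the translation initiation gene EIF1, the first well expressed gene beyond them, averaged 89.1 CPM in the combination and 77.1 CPM with palbociclib, against 110.9 CPM in control.

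**Figure D3:**
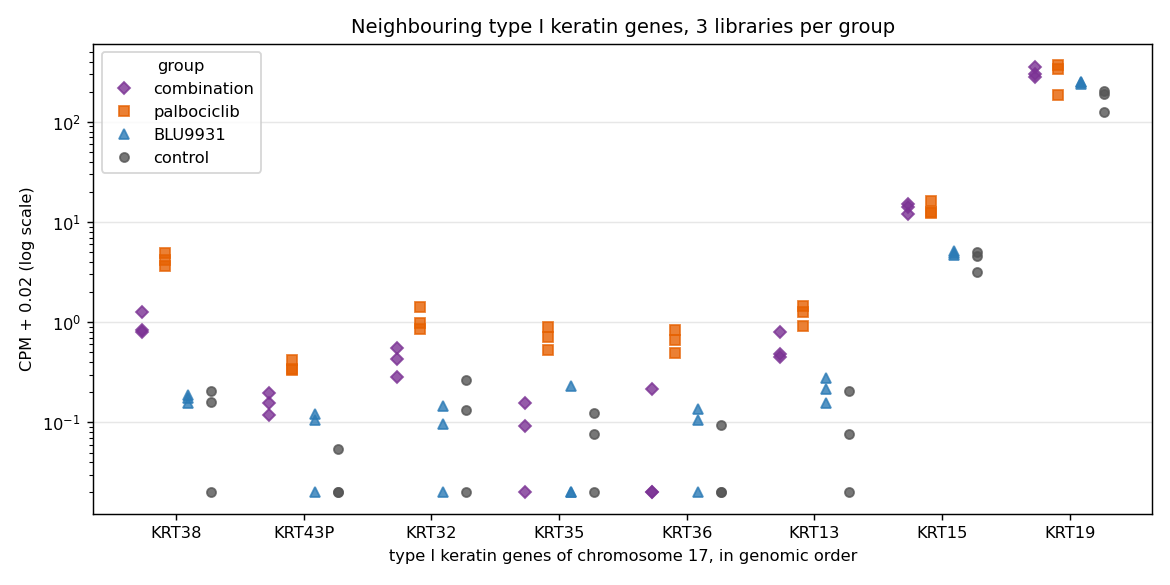
CPM plus 0.02 on a log axis for 8 neighbouring type I keratin rows of chromosome 17 in genomic order, each point a library, with the combination leftmost within each gene. From KRT38 to KRT13 the 3 palbociclib libraries are the highest points, while at KRT15 the combination and palbociclib libraries overlap and both lie above the rest.

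Among the keratins of stratified epithelium, KRT15 and KRT13 rose with palbociclib and in the combination. KRT15 (ENSG00000171346), a keratin of basal cells and of hair follicle stem cells, was at 15.2, 11.9 and 14 CPM in the combination and 16.3, 12.3 and 12.5 CPM with palbociclib, against 4.67, 4.85 and 5.06 CPM with BLU9931 and 3.16, 4.95 and 4.53 CPM in control. The combination and palbociclib libraries overlapped each other and lay above all others. The fold over control was 3.24 in the combination (log2 1.70 ± 0.19, adjusted p = 5.23e-05) and 3.25 with palbociclib (log2 1.70 ± 0.19, adjusted p = 0.000142). Combination and palbociclib differed by 0.00 ± 0.18 on the log2 scale (95% interval -0.40 to 0.40, adjusted p = 0.997).

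KRT13, the suprabasal keratin of mucosal epithelia, was at 0.770, 0.427 and 0.458 CPM in the combination and 1.44, 1.26 and 0.889 CPM with palbociclib, against 0.255, 0.136 and 0.193 CPM with BLU9931 and 0.186, 0 and 0.0566 CPM in control. No control library overlapped either group. No control or BLU9931 library was over the filter's cut-off for KRT13, so here too a difference from control was part of how the gene was admitted. The log2 change over control was 2.74 ± 0.64 in the combination (adjusted p = 0.00726) and 3.87 ± 0.61 with palbociclib (adjusted p = 0.00117), and was 3.93 and 5.09 without control replicate 1. Its type II partner KRT4 was not tested, at 0.408, 0.498 and 0.294 CPM in the combination and 0.134, 0 and 0.0808 CPM with palbociclib, against 0, 0.138 and 0.085 CPM in control.

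KRT6A, of activated and wounded keratinocytes, was at 1.31, 1.46 and 1.21 CPM in the combination and 0.470, 1.18 and 0.687 CPM with palbociclib, against 0.410, 0.727 and 0.283 CPM in control. The combination passed against control (log2 1.49 ± 0.44, adjusted p = 0.0227) and palbociclib did not (log2 0.72 ± 0.45, adjusted p = 0.301). The call was lost without control replicate 1 (adjusted p = 0.0686) or 3 (0.0877) or combination replicate 1 (0.0533) or 2 (0.0669), or without control replicate 1 and palbociclib replicate 3 together (0.0576). It was also lost by limma on log2(TPM + 1) (0.0849) and on log2(TPM + 0.1) (0.0951). KRT5, the basal type II keratin, was at 0.453, 0.0711 and 0.295 CPM in the combination and 0.805, 0.354 and 0.566 CPM with palbociclib, against 0, 0.242 and 0.113 CPM in control. KRT5 too entered the test only with the palbociclib libraries, and palbociclib against control gave log2 2.23 ± 0.74 at adjusted p = 0.0533 in edgeR and 0.0272 in DESeq2. KRT10, the type I keratin of the spinous layer, stayed between 7.96 and 11.8 CPM in all libraries, with a log2 change of 0.10 in the combination (95% interval -0.22 to 0.42) and -0.14 with palbociclib (-0.46 to 0.18). It shares 3490 bases with TMEM99 on the opposite strand, and the use of strand in counting is not given.

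Of the simple epithelial keratins, KRT20 rose most and KRT18 passed in no comparison. KRT20 (ENSG00000171431, chromosome 17, 40875941 to 40885227), a type I keratin of gut epithelium, urothelium and Merkel cells, was at 9.56, 11.3 and 11.5 CPM in the combination and 4.06, 4.45 and 5.01 CPM with palbociclib, against 1.10, 1.63 and 1.39 CPM with BLU9931 and 1.38, 1.49 and 1.61 CPM in control. Combination, palbociclib and the remaining 6 libraries formed 3 steps with no overlap. The fold over control was 7.19 in the combination (log2 2.85 ± 0.18, adjusted p = 7.39e-07) and 3 with palbociclib (log2 1.59 ± 0.18, adjusted p = 0.000135). BLU9931 alone differed from control by -0.12 ± 0.18 (95% interval -0.52 to 0.29, adjusted p = 0.766).

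KRT19, which lacks the tail domain of other keratins, was at 300.2, 280.8 and 348.5 CPM in the combination and 340, 366.2 and 184.8 CPM with palbociclib, against 249.6, 238.6 and 247.8 CPM with BLU9931 and 124.6, 190.9 and 203 CPM in control. Palbociclib replicate 3 and control replicate 1, which stood apart in the principal components, were the lowest of their groups, and palbociclib overlapped control. The log2 change was 0.84 ± 0.24 in the combination (adjusted p = 0.0181) and 0.78 ± 0.24 with palbociclib (adjusted p = 0.0373). Without both of those libraries it was 0.64 (adjusted p = 0.000237) and 0.82 (adjusted p = 0.000146). The palbociclib call was lost under leaving out any single library other than palbociclib replicate 3 (adjusted p up to 0.166), and the combination call without control replicate 1 (0.0692) or combination replicate 1 (0.0501) or 3 (0.0753).

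KRT8, the type II partner, was at 298.3, 281.7 and 352.2 CPM in the combination and 297.4, 274.4 and 183.3 CPM with palbociclib, against 299.2, 303.4 and 292.7 CPM with BLU9931 and 158.9, 234.3 and 216.7 CPM in control. The combination passed against control (log2 0.61 ± 0.18, adjusted p = 0.024) and palbociclib did not (log2 0.31 ± 0.18, adjusted p = 0.266). Palbociclib did pass without palbociclib replicate 3 (log2 0.49, adjusted p = 0.0293), and without that library and control replicate 1 (log2 0.32, adjusted p = 0.0311). The KRT8 call in the combination was lost without control replicate 1 (adjusted p = 0.0967) or 3 (0.0539) or combination replicate 1 (0.0607) or 3 (0.11). KRT18, the type I partner of KRT8, was at 122.5, 125.2 and 132.6 CPM in the combination and 115, 112.1 and 95.4 CPM with palbociclib, against 123.3, 126.6 and 127.3 CPM in control. Its log2 change was 0.01 in the combination (95% interval -0.20 to 0.22) and -0.23 with palbociclib (-0.43 to -0.02, adjusted p = 0.118). The ratio of KRT19 to KRT18 by TPM was 3.02, 2.74 and 3.17 in the combination and 3.67, 4.02 and 2.46 with palbociclib, against 2.09, 2.17 and 2.15 with BLU9931 and 1.27, 1.82 and 1.93 in control. KRT8 and KRT18 share 1084 bases on opposite strands, and pseudogene rows held 4.02% to 8.04% of the counts named for KRT8 and 2.39% to 4.19% of those named for KRT18, so reads could be split between copies.

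KRT7, of ductal and glandular epithelium, was at 2.72, 2.70 and 2.0 CPM in the combination and 1.41, 1.65 and 0.930 CPM with palbociclib, against 2.38, 2.31 and 2.51 CPM with BLU9931 and 1.01, 1.42 and 1.53 CPM in control. The groups given BLU9931 overlapped each other, and so did the groups without it. The combination passed against control (log2 0.90 ± 0.24, adjusted p = 0.0157), and BLU9931 alone gave a change of 0.86 ± 0.24 at adjusted p = 0.172. The combination call was lost without control replicate 1 (adjusted p = 0.0625) or combination replicate 1 (0.0611) or 2 (0.0629). The KRT7 row overlaps KRT86 on the same strand and KRT7-AS on the opposite strand, rows that held 45 and 52 counts against 615 for KRT7.

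The summed level of the S100 genes did not overlap between any of the 4 groups. Their 15 rows summed to 443.7 ± 14.5 TPM in the combination, 287 ± 36.8 TPM with palbociclib, 166 ± 14.5 TPM with BLU9931 and 117.9 ± 19.6 TPM in control (SD, n = 3), without a test of the sum. Type I keratin sums had the same order of means, but with groups that overlapped. S100A6 (ENSG00000197956, chromosome 1, 153534599 to 153536244), calcyclin, a gene of proliferating and epithelial cells, supplied most of it. It was at 126.2, 127.3 and 140.1 CPM in the combination and 80.8, 89.7 and 73.7 CPM with palbociclib, against 46.8, 42.2 and 50.3 CPM with BLU9931 and 26.0, 36.8 and 37.0 CPM in control. The 4 groups did not overlap. The fold over control was 3.94 in the combination (log2 1.98 ± 0.15, adjusted p = 2.64e-06) and 2.45 with palbociclib (log2 1.29 ± 0.15, adjusted p = 0.000158). BLU9931 alone gave 1.39-fold (log2 0.48 ± 0.15, unadjusted p = 0.00685 and adjusted p = 0.194 in edgeR).

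S100A3, known from the hair cuticle, was at 9.52, 9.06 and 8.61 CPM in the combination and 6.14, 5.86 and 3.48 CPM with palbociclib, against 2.17, 1.77 and 2.01 CPM with BLU9931 and 0.782, 1.11 and 1.02 CPM in control. Its groups also formed 4 steps without overlap. The fold over control was 9.28 in the combination (log2 3.21 ± 0.24, adjusted p = 2.14e-06) and 5.29 with palbociclib (log2 2.40 ± 0.23, adjusted p = 5.31e-05). BLU9931 gave 2.03-fold at adjusted p = 0.12.

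S100A4, known for its part in cell motility, was at 7.80, 5.47 and 3.70 CPM in the combination and 3.42, 3.93 and 4.89 CPM with palbociclib, against 2.04, 2.31 and 2.09 CPM with BLU9931 and 1.82, 1.56 and 2.32 CPM in control. The log2 change was 1.56 ± 0.27 in the combination (adjusted p = 0.00105) and 1.09 ± 0.27 with palbociclib (adjusted p = 0.0142). The palbociclib call was lost without control replicate 2 (adjusted p = 0.0562), and without control replicate 1 and palbociclib replicate 3 together (adjusted p = 0.062). The S100A3 row lies inside that of S100A4 on the same strand, with 2044 shared bases, so how reads were split between this pair is uncertain.

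S100A10, the partner of annexin A2, rose in the combination and not with palbociclib alone. It was at 1.99, 2.42 and 2.09 CPM in the combination and 0.470, 0.905 and 0.970 CPM with palbociclib, against 1.87, 2.07 and 1.55 CPM with BLU9931 and 1.38, 1.31 and 0.935 CPM in control. The palbociclib libraries overlapped control, the BLU9931 libraries overlapped the combination, and the combination lay above control. The combination passed against control (log2 0.85 ± 0.27, adjusted p = 0.031), and palbociclib differed from control by -0.63 ± 0.28 (adjusted p = 0.144). The combination call was lost without control replicate 2 (adjusted p = 0.0571) or 3 (0.112) or without any combination replicate (0.054 to 0.0981).

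The other tested S100 genes, S100A1, S100A2, S100A5, S100A11, S100A13 and S100A14, passed in no comparison in the fit of all libraries. S100A13, which takes part in FGF1 export, and S100A1, of muscle, share 3435 bases on opposite strands. S100A13 was at 10.4, 8.64 and 7.82 CPM in the combination and 10.2, 11.3 and 8.53 CPM with palbociclib, against 10.1, 7.20 and 8.10 CPM in control, with groups that overlapped. Without control replicate 1 and palbociclib replicate 3, S100A13 passed for palbociclib against control (log2 0.48, adjusted p = 0.0395, against 0.24 and adjusted p = 0.352 with them). S100A2, of basal keratinocytes, was at 0.408, 0.853 and 0.720 CPM in the combination and 0.905, 0.747 and 0.404 CPM with palbociclib, against 0.298, 0.519 and 0.425 CPM in control. Its log2 change was 0.68 in the combination (95% interval -0.20 to 1.56) and 0.73 with palbociclib (-0.15 to 1.60). S100A11 reached 26 counts in a library, S100A14 19 and S100A5 11.

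Of the envelope genes that could be tested, FLG had a low level throughout. FLG was at 0.317, 0.675 and 0.654 CPM in the combination and 0.905, 1.06 and 0.889 CPM with palbociclib, against 0.255, 0.339 and 0.464 CPM with BLU9931 and 0.372, 0.554 and 0.283 CPM in control. The palbociclib libraries lay above all others, and the log2 change over control was 1.24 ± 0.36 (adjusted p = 0.0314), against 0.47 ± 0.37 in the combination (adjusted p = 0.367). The palbociclib call was lost without control replicate 1 (adjusted p = 0.0794) or 3 (0.114) or palbociclib replicate 1 (0.0714) or 2 (0.101), or without control replicate 1 and palbociclib replicate 3 together (0.0823). It was also lost without the filter (0.0571) and by limma on log2(TPM + 1) (0.268) and on log2(TPM + 0.1) (0.146). FLG-AS1, on the opposite strand over the whole of FLG, held 100 counts against 186 for FLG. TGM1, the membrane transglutaminase of keratinocytes, was at 1.90, 1.21 and 1.37 CPM in the combination and 1.81, 1.85 and 0.687 CPM with palbociclib, against 1.75, 1.73 and 1.78 CPM in control, with groups that overlapped. Its log2 change was -0.24 in the combination (95% interval -0.97 to 0.50) and -0.27 with palbociclib (-1.0 to 0.47).

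Adding BLU9931 to palbociclib moved members in both directions. Of the 27, edgeR called 5 in the combination against palbociclib, where 3.82% of all tested genes passed, 0.917% higher and 2.91% lower. KRT20 (log2 1.26 ± 0.17, adjusted p = 0.00124), S100A10 (1.48 ± 0.28, adjusted p = 0.0119) and S100A6 (0.69 ± 0.15, adjusted p = 0.0215) rose, and KRT74 and KRT38 fell as given above. The S100A10 call was lost without combination replicate 2 (adjusted p = 0.0521). The S100A6 call was lost without palbociclib replicate 1 (0.0778) or 3 (0.0503) or without any combination replicate (0.0733 to 0.101). S100A3 missed the threshold in edgeR (log2 0.81 ± 0.21, adjusted p = 0.0586), passed in DESeq2 (adjusted p = 0.0123), and passed in edgeR without control replicate 1 and palbociclib replicate 3 (log2 0.59, adjusted p = 0.0236). Over all genes DESeq2 called 1328 here and edgeR without those libraries 2043, against 788 in edgeR with all libraries.

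Adding palbociclib to BLU9931 raised 7 of the 27 and lowered 0, where 27% of all tested genes passed, 13.3% higher and 13.7% lower. The share of members called in either direction, 25.9%, was thus no greater than that of all genes, though every member call was higher. The raised members were KRT20, S100A6, S100A3, KRT15, KRT38, S100A4 and KRT32. No BLU9931 library was over the filter's cut-off for KRT38 or KRT32. KRT38 entered the test through the palbociclib and combination libraries, and KRT32 only with the palbociclib libraries, so both calls carry that selection. KRT20 stood at a log2 change of 2.96 ± 0.18 (adjusted p = 7.39e-07), S100A3 at 2.19 ± 0.22 (adjusted p = 2.98e-05) and S100A6 at 1.5 ± 0.15 (adjusted p = 2.31e-05). KRT32 was called from 5 counts in the BLU9931 libraries (log2 2.55 ± 0.86, adjusted p = 0.0454), and lost its call without any library other than control replicates 1 and 2 and palbociclib replicate 3, with an adjusted p of up to 0.145 and a log2 change between 1.91 and 3.27. Without control replicate 1 and palbociclib replicate 3, KRT13 (log2 1.46, adjusted p = 0.0333) and KRT19 (log2 0.32, adjusted p = 0.00791) passed as well. That fit called 8685 of all genes in this comparison, against 5572 with all 12 libraries.

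The interaction asked whether the log2 effect of the combination differed from the sum of the effects of both drugs alone. It was called for 2 of the 27, where 1.59% of all tested genes passed, 0.281% higher and 1.31% lower. KRT74 lay below the sum by 2.59 on the log2 scale (-2.59 ± 0.35, adjusted p = 0.00295), and KRT20 lay above it (1.38 ± 0.25, adjusted p = 0.0189). KRT74 was called under every library left out, while KRT20 was lost under 8 of the 12: control replicates 2 and 3, BLU9931 1 and 3, palbociclib 1 and 2, and combination 2 and 3, with an adjusted p of 0.0528 to 0.0635. KRT38 gave -2.61 ± 0.77 at adjusted p = 0.141 in edgeR and 0.0167 in DESeq2, and S100A6 gave 0.21 ± 0.21 (95% interval -0.24 to 0.66, adjusted p = 0.698). Without control replicate 1 and palbociclib replicate 3, edgeR also called KRT38 (-3.19, adjusted p = 0.0416), KRT13 (-3.78, adjusted p = 0.0301) and KRT19 (-0.51, adjusted p = 0.0287) below the sum. For the interaction that fit called 2117 of all genes and DESeq2 853, against 328 in edgeR with all 12 libraries.

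**Figure D4:**
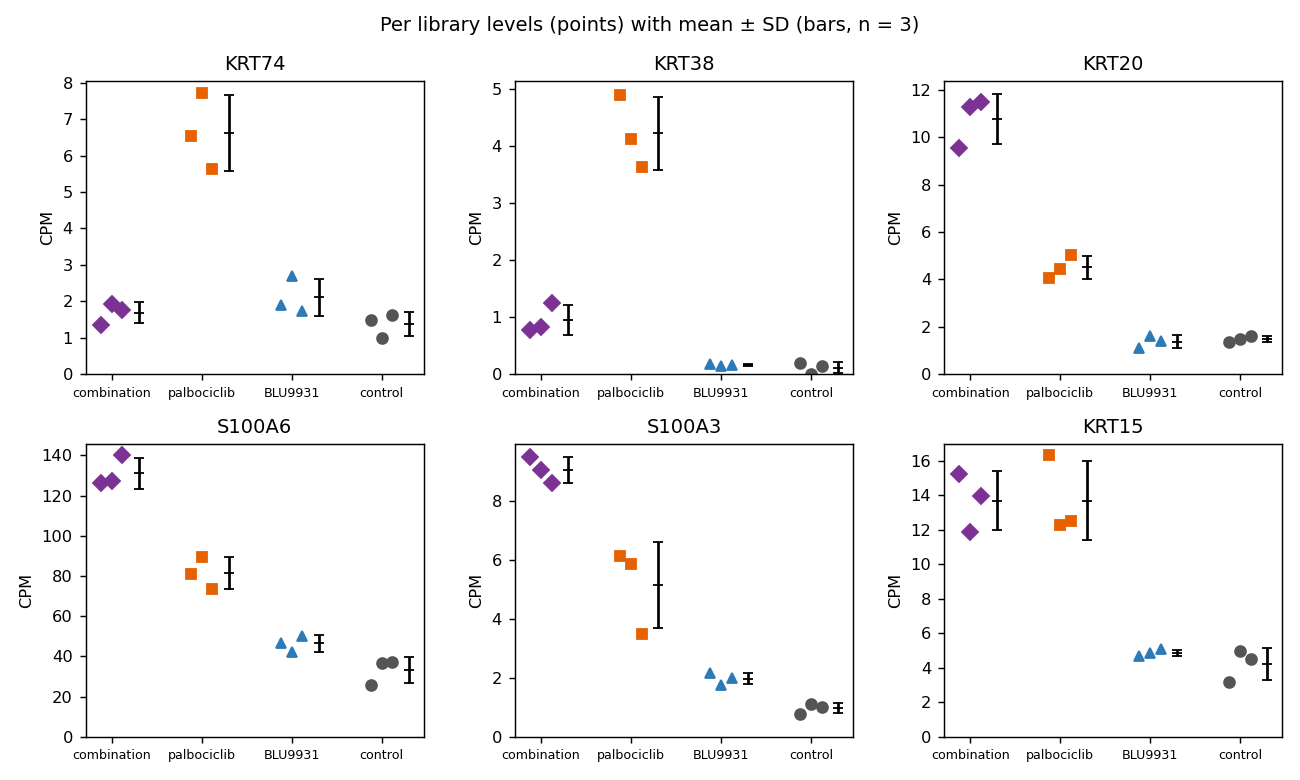
CPM in each library (points) with the mean ± SD of 3 (bars) for KRT74, KRT38, KRT20, S100A6, S100A3 and KRT15 in the combination, palbociclib, BLU9931 and control groups, on linear axes that start at 0. KRT74 and KRT38 are highest with palbociclib, KRT20, S100A6 and S100A3 are highest in the combination, and KRT15 is alike in both.

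Genes of the structures and factors around the keratins were followed through 4 lists, each described by counts in the same fits. Counts without control replicate 1 and palbociclib replicate 3 follow in brackets, while all shares are those of the fit of all 12 libraries. The share of all genes called in the smaller fit is not given, so the bracketed counts cannot be read against a background. Of 42 other genes of the cornified envelope and epidermal barrier 14 were tested. In the combination against control 3 rose and 1 fell, and with palbociclib 1 rose and 1 fell (4 and 2, and 2 and 1, without control replicate 1 and palbociclib replicate 3). These were 28.6% and 14.3% of those tested, where 31.7% and 20.6% of all tested genes passed. The protease inhibitor CSTB rose by 0.45 ± 0.09 on the log2 scale (adjusted p = 0.00293) and the suprabasal gene SBSN by 2.14 ± 0.47 (adjusted p = 0.00504) in the combination, while the kallikrein inhibitor SPINK5 rose by 0.64 ± 0.14 with palbociclib (adjusted p = 0.00721). The trichohyalin gene TCHH, of the inner root sheath like KRT74, averaged 0.173 ± 0.0280 CPM in the combination and 0.926 ± 0.190 CPM with palbociclib, against 2.96 ± 0.0508 CPM in control (SD, n = 3). It fell by 4.06 ± 0.24 on the log2 scale in the combination (adjusted p = 3.91e-07) and by 1.67 ± 0.19 with palbociclib (adjusted p = 0.00015), a direction opposite to that of KRT74 under palbociclib. Its interaction was -2.71 ± 0.31 (adjusted p = 0.000932).

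Of 20 desmosome and hemidesmosome genes 17 were tested, with 2 higher and 4 lower in the combination against control and 1 higher and 2 lower with palbociclib (2 and 5, and 3 and 6, without those 2 libraries). In the fit of all 12 libraries these were 35.3% and 17.6%, near the 31.7% and 20.6% of all tested genes. The keratin linkers JUP (277.7 ± 33.3 CPM in the combination, 101.7 ± 31.0 CPM in control, log2 1.45 ± 0.26, adjusted p = 0.00129) and PLEC (log2 1.49 ± 0.37, adjusted p = 0.00913) rose in the combination, by 1.20 and 1.15 without those libraries, and DSP (log2 -0.30 ± 0.07, adjusted p = 0.0053) and DSG2 (-0.45 ± 0.11, adjusted p = 0.00831) fell there. Of 26 regulators of keratinocyte differentiation 22 were tested, with 5 higher and 4 lower in the combination and 2 higher and 3 lower with palbociclib (6 and 7, and 5 and 3, without those libraries), or 40.9% and 22.7% beside the same 31.7% and 20.6%. MAF, a late differentiation factor, averaged 5.88 ± 0.911 CPM in the combination and 7.34 ± 0.330 CPM with palbociclib, against 1.36 ± 0.174 CPM in control (adjusted p = 5.24e-06 and 8.63e-06). The epithelial factor ELF3 rose by 1.48 ± 0.16 in the combination (adjusted p = 3.28e-05) and by 0.66 ± 0.16 with palbociclib (adjusted p = 0.0109, and 0.0634 without palbociclib replicate 2), and KLF5 fell by 0.52 ± 0.12 and 0.72 ± 0.12 (adjusted p = 0.00695 and 0.0018). PRDM1, also of this list, had a log2 change of -1.19 in the combination against control (adjusted p = 9.35e-05) and -1.16 against palbociclib (adjusted p = 0.000892). Its interaction was -0.95 (adjusted p = 0.0419), a call lost in 9 of the fits that left out 1 library.

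Of 16 other intermediate filament genes 12 were tested, with 4 higher and 5 lower in the combination against control and 1 higher and 4 lower with palbociclib (4 and 5, and 1 and 3, without those libraries), or 75% and 41.7% beside the same 31.7% and 20.6%. VIM, the mesenchymal filament gene, averaged 539.8 ± 7.66 CPM in the combination and 307.2 ± 11.3 CPM with palbociclib, against 227.1 ± 25.3 CPM in control (adjusted p = 7.41e-06 and 0.0146, the second being 0.0573 without control replicate 3). The nuclear lamin LMNB1 fell by 2.29 ± 0.17 on the log2 scale in the combination (adjusted p = 2.5e-06) and by 0.99 ± 0.17 with palbociclib (adjusted p = 0.00164). With BLU9931 alone edgeR called 0 genes of the 4 lists, with 1 of 14, 6 of 17, 3 of 22 and 6 of 12 at an unadjusted p under 0.05 in the order given, beside 16.2% of all tested genes, and DESeq2 called 0, 1, 1 and 0. The median log2 change in the combination and with palbociclib was 0.38 and 0.00 for the barrier list (0.00209), -0.05 and -0.09 for the desmosome list, -0.00 and 0.07 for the regulators (-0.00251) and -0.37 and -0.45 for the other filaments, against 0.03 and 0.01 for all tested genes.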

How the data were processed

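RNA of 12 H520 libraries was sequenced by the authors, who deposited 1 table in which every gene has a count, its TPM and its FPKM in each library. The counts are raw, whole numbers, named as counts per the file headers. The TPM and FPKM values are named so per the file headers, are scaled by gene length, and come from the deposited table as they stand. FPKM values were not used. Tools named in the submitters' processing notes are HISAT2 2.0, StringTie 1.3.3b, Trimmomatic 0.36 and bedtools 2.26.0, with a mouse build, while the rows hold human Ensembl gene IDs, of which 57836 of 58174 are in GENCODE 29 (56044 with the same start and end, 113 of the 116 members). Positions are therefore given on GRCh38. How reads were counted, and the use of strand, is not given in the sources used here. Columns that belong to samples of other series number 0.

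Counts were tested in R 4.3.3 with edgeR 4.0.16: filterByExpr over the 4 groups (20612 genes, minimum count 10), TMM scaling, and a robust quasi-likelihood fit of the 12 libraries with a term per group and 8 residual degrees of freedom (common dispersion 0.0518). Tests were two-sided, and a call is a Benjamini-Hochberg adjusted p under 0.05 over all genes tested, with no minimum fold. The 6 comparisons are palbociclib, BLU9931 and the combination against control, the combination against each drug, and the interaction. Libraries of a group differed by more than counting error (chi-square per degree of freedom of 17.5 to 85.6). Counting intervals of summed counts are exact and cover counting error only. Alternatives were library totals, relative log expression factors, DESeq2 1.42.0, no filter, limma 3.58.1 on log2(TPM + 1) and log2(TPM + 0.1), a replicate block, leaving out 1 library, and leaving out control replicate 1 and palbociclib replicate 3 together. Tables and plots used Python 3.11.15. Promoters are RefSeq sequences (GRCh38.p14) matched by symbol, with 78 members found.

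Members, lists and tests were chosen with earlier results of these data known. Named are a panel of well known members and every member called in any comparison, and, of the other lists, up to 4 called genes per comparison.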

Additional observations from a re-analysis of the deposited data

Results flagged for a closer look

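In 2 of the 27 tested members the log2 effect of the combination differed from the sum of the effects of both drugs, by edgeR's test of the interaction. Of all tested genes 1.59% passed that test (328 of 20612). KRT74 gave -2.59 ± 0.35 (SE, adjusted p = 0.00295), with 1.68 ± 0.289 CPM in the combination and 6.62 ± 1.05 CPM with palbociclib, against 2.11 ± 0.502 CPM with BLU9931 and 1.37 ± 0.323 CPM in control (SD, n = 3). KRT20 gave 1.38 ± 0.25 (adjusted p = 0.0189), with 10.8 ± 1.06 CPM in the combination and 4.5 ± 0.480 CPM with palbociclib, against 1.37 ± 0.263 CPM with BLU9931 and 1.49 ± 0.118 CPM in control. The KRT20 call was lost in 8 of the 12 fits that left out 1 library (adjusted p up to 0.0635), while KRT74 kept its call in each. With 3 libraries a group, single libraries far from their group mates were not tested for.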

How the results depend on the processing

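Of 39 calls of a member in a comparison, 24 stayed past the threshold under all 20 alternatives and 15 were lost under at least 1, without a change of direction. Library totals, relative log expression factors and DESeq2 lost none of the 39, and library totals moved the median log2 change of all genes to at most 0.11 (0.106, combination against control). The fit without the filter lost FLG and KRT19 with palbociclib, S100A10 in the combination, and KRT32 in the combination against BLU9931. Both limma runs lost FLG with palbociclib and KRT6A in the combination. The replicate block lost KRT19 with palbociclib, S100A6 in the combination against palbociclib, and KRT32 in the combination against BLU9931. KRT35 in the interaction, not called, changed sign without BLU9931 replicate 1 (0.37, within -4.41 to 0.37 when 1 library was left out). Of 105 pairs never called, 43 changed sign under some alternative.

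Counts of members called that moved by over 1.5 times were, for BLU9931, 1 by DESeq2 and 2 without control replicate 1 and palbociclib replicate 3, with 0 to 1 when 1 library was left out. For the combination against control the range was 7 to 12 when 1 library was left out, beside 5105 to 7869 over all genes. Against palbociclib it was 9 by limma on log2(TPM + 1) and 8 on log2(TPM + 0.1), with 2 to 5 when 1 library was left out. For the interaction it was 5 by limma on log2(TPM + 1) and 5 without both libraries that stood apart, with 1 to 2 when 1 library was left out. Limma counts over all genes are not given for either of these comparisons, so its member counts have no background here. Counts over all genes moved too. For BLU9931 they were 590 by DESeq2, 17 without the filter, 22 by limma on log2(TPM + 1), 2 with the replicate block, 553 without both libraries, and 1 to 396 when 1 library was left out. For the combination against palbociclib they were 1328 by DESeq2, 483 with the block, 2043 without both libraries, and 438 to 945 when 1 was left out. Against BLU9931 the combination gave 8685 without both libraries. For the interaction they were 853 by DESeq2, 142 with the block, 2117 without both libraries, and 148 to 986 when 1 was left out. The cause was not tested.

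Little shared shift was seen between libraries of the same replicate number: 3 of 18 same-numbered pairs had a correlation of deviations over 0.1 (-0.364 to 0.168). With 3 libraries a group, of which some stood apart, these correlations cannot show whether the replicates were paired. With the replicate block the members called were 12 for palbociclib and 12 for the combination against control, 4 against palbociclib, 6 against BLU9931, and 2 for the interaction. Over all genes that fit called 483 against palbociclib and 142 for the interaction. Its counts over all genes in the other comparisons just named are not given, so those member counts cannot be read against a background. Depth limits most members: genes at a few counts per library, such as KRT35 and KRT36, and the 89 that did not pass the filter, could not show a moderate change.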
